A study of Mus musculus with 8 samples.

Results

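Pgk2 and Pdha2 are retrogenes, genes that arose when the messenger RNA of another gene was copied back into the genome, and Pgk1 and Pdha1 are their parents. The 4 genes were selected by symbol, as 4 of the 23983 genes in a table of FPKM values (fragments for each kilobase of transcript in 1000000 mapped fragments), and each retrogene was compared with its parent. The values come from RNA-seq of whole testis, a mixture of germ cells and somatic cells, of wild-type C57BL/6J mice. The ages were d12, d16 and d24 post partum, and adult with no age stated, and the labels name neither a transgene nor a treatment. A single library stood for each age, so the spread between mice is unknown and stages were not tested against each other.

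Phosphoglycerate kinase makes ATP in glycolysis, by passing a phosphate group from 1,3-bisphosphoglycerate to ADP. The pyruvate dehydrogenase complex links glycolysis to the citrate cycle by turning pyruvate into acetyl-CoA, and PDHA1 or PDHA2 is the alpha subunit of its first enzyme, E1. Both parents lie on the X chromosome, which is silenced in male germ cells during meiotic prophase (meiotic sex chromosome inactivation, MSCI), whereas both retrogenes are autosomal and are known from spermatogenic cells. During the first wave of spermatogenesis germ cells pass through meiosis together and then become haploid spermatids, so that the age of a juvenile testis sets which germ cells it holds.

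Pgk1 has 11 exons and spans bases 106187100 to 106203699 of the X chromosome, on the plus strand (all positions GRCm38). Pgk2 is a single exon on the minus strand of chromosome 17 from 40207018 to 40208609. Pdha1 lies on the minus strand of the X chromosome from 160122219 to 160138430 and has 11 exons. Pdha2 is a single exon on the minus strand of chromosome 3 from 141210004 to 141212355. The coding sequences of Pgk2 and Pgk1 are both 1254 bases long and 79.3% identical, and the 417 residues of their proteins are 83.7% identical. The coding sequence of Pdha2 has 1176 bases and that of Pdha1 has 1173, with 75.6% identity over 1173 aligned bases, and the proteins of 391 and 390 residues are 76.9% identical.

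The loss of introns can be read at the middle exon junction of each parent, shown here with 30 coding bases on each side and the bases that differ within a pair in capitals. In Pgk1, exons 5 and 6 are separated by an intron of 895 bases, and in Pgk2 the same 60 bases run on without interruption. In Pdha1, exons 5 and 6 are separated by an intron of 852 bases. Each pair differs at 14 of the 60 bases.
Pgk1, exons 5 and 6 (chrX:106196917-106196946 and chrX:106197842-106197871, plus strand): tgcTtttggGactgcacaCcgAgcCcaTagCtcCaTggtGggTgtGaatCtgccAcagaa
Pgk2 (chr17:40207985-40208044, minus strand): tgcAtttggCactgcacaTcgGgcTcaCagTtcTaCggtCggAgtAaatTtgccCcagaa
Pdha1, exons 5 and 6 (chrX:160129410-160129439 and chrX:160128528-160128557, minus strand): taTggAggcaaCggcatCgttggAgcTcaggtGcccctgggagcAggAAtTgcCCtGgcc
Pdha2 (chr3:141211203-141211262, minus strand): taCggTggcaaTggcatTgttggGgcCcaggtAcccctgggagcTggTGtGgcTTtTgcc

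These differences bear on how well reads of 50 bases can be told apart. The longest run of identical bases between Pgk2 and Pgk1 is 22, and between Pdha2 and Pdha1 it is 20, so none of the stretches of 50 bases in a retrogene transcript occurs in its parent. Elsewhere in the genome, 0 of 1543 stretches of Pgk2 and 0 of 2303 of Pdha2 occur, and 19 of 2806 of Pdha1 do. Pgk1 stands apart here. Of its 1776 stretches, 1648 (92.8%) also occur outside the gene. The pseudogene Pgk1-rs7 on chromosome 12 (10898563 to 10900313) matches 1751 bases of the Pgk1 transcript at 99.7% identity, and a copy on chromosome 3 (58102569 to 58104296, annotated as the pseudogene Gm5537) matches 1728 bases at 99.7%. Neither is listed in the table, and how many Pgk1 reads were placed on them was not tested. The level of Pgk1 and each ratio that has it as denominator carry this uncertainty. The longest match of Pdha1 elsewhere lies in the transcribed pseudogene 4930519F09Rik on chromosome 10, with 1977 bases at 85.8% identity. This pseudogene had 3.72 FPKM at d12 and 10.45 in adult testis, against 21.3 and 6.26 for Pdha1. Pdha1 overlaps Map3k15, which lies on the other strand, by 1128 bases, and the libraries were strand-specific. Map3k15 was lower than Pdha1 at every stage, from 3.49 FPKM at d12 to 0.387 in adult testis.

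The sequence around the annotated start of each gene is shown because the members of each pair differed in expression. Each window holds 250 bases before and 50 after the start (RefSeq, GRCm38.p6). Capitals mark matches on both strands to 6 motifs. The cAMP response element was searched as TGACGTCA, and the shorter core TGACG lies within it. The GC box was searched as GGGCGG, the CCAAT box under its name as letters, and the TATA box as TATAAA. The core of MYB sites was searched as CAACNG.
Pgk1 (chrX:106186850-106187149, plus strand): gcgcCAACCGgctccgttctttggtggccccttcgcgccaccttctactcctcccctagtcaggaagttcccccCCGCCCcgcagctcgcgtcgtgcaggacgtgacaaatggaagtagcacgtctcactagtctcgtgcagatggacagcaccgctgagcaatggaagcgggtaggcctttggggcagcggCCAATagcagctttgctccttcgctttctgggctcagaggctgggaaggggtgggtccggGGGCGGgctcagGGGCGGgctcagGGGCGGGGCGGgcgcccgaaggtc
Pgk2 (chr17:40208560-40208859, minus strand): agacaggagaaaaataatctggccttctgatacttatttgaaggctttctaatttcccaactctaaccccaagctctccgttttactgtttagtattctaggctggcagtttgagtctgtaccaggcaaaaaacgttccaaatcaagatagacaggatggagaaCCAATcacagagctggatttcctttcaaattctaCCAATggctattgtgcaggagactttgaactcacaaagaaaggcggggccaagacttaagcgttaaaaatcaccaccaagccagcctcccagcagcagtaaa
Pdha1 (chrX:160138381-160138680, minus strand): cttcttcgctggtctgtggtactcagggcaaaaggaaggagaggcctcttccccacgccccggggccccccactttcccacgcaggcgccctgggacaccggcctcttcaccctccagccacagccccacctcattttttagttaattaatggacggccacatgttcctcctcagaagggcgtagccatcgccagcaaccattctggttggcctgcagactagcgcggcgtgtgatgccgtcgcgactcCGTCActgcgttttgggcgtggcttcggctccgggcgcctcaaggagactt
Pdha2 (chr3:141212306-141212605, minus strand): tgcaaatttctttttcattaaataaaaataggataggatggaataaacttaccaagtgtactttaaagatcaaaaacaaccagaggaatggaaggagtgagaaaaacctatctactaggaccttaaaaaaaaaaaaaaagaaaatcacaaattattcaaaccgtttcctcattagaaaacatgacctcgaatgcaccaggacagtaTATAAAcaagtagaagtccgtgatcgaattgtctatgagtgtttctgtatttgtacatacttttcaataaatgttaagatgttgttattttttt

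The windows of the parents are rich in G and C, with 66.7% and 24 CpG dinucleotides for Pgk1 and 62.0% and 21 for Pdha1. Those of the retrogenes hold 43.0% for Pgk2 and 29.7% for Pdha2, with 4 CpG dinucleotides each. Over the 16793 genes of the table with such a window, the median was 56.7% and 14 CpG dinucleotides. Pgk1 has 5 matches to GGGCGG, of which the last pair share 1 base, and 47.2% of all windows hold at least 1. CCAAT occurs at 2 places in the Pgk2 window and at 1 in the Pgk1 window, against 38.8% of all windows with a match. TATAAA occurs in the Pdha2 window, starting 44 bases before the annotated start, and in 12.8% of all windows. TGACG occurs in the Pdha1 window alone among the 4, and in 24.4% of all windows. CAACNG occurs in the Pgk1 window alone among the 4, and in 33.9% of all windows. The full TGACGTCA occurs in none of the 4 windows and in 2.41% of all. The annotated Pdha2 transcript begins 610 bases before its coding sequence, against 74 bases for Pgk2, so the Pdha2 window lies farther from the coding sequence.

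The depth behind the values was read from the FPKM steps. Among 14603 genes with 1 curated transcript, 91.7% to 92.4% of the values of up to 20 fragments lay within 0.05 of a whole number of fragments. These genes held 4580219 fragments at d12, 4822348 at d16, then 11875536 at d24 and 6044213 in the adult. For Pgk1, Pgk2 and Pdha2 the annotated transcript length gave whole fragments at all 4 stages. For Pdha1 the values were whole at a length of 2761 bases and not at the annotated 2855, and the shorter length was used. Ranges in parentheses are exact intervals at a level of 95%. They reflect the counting of fragments and nothing else, and PCR copies of 1 molecule were not identified.

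Pgk2 was nearly absent at d12 and among the most abundant transcripts of adult testis. It had 0.401 FPKM at d12 (8 fragments, interval 0.173 to 0.791), 4.77 at d16 (95 fragments, interval 3.86 to 5.84), then 157.2 at d24 (5500 fragments, interval 153.1 to 161.5) and 388.9 in the adult (5521 fragments, interval 378.7 to 399.3). Each stage lay above the one before it, and no intervals overlapped. The level at d16 was 11.9 times that at d12 (5.80 to 28.4), and the level at d24 was 32.9 times that at d16 (26.9 to 40.8). Adult testis had a level 2.47 times that at d24 (2.38 to 2.57). Counted from the highest FPKM, Pgk2 moved from rank 14110 of the 23983 genes at d12 to 521 at d24 and 268 in adult testis. In whole testis, more cells of a type and more RNA per cell cannot be told apart.

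Pdha2 was already present at d12 and made its largest fold step by d16. It had 7.67 FPKM at d12 (226 fragments, interval 6.71 to 8.74), 63.7 at d16 (1872 fragments, interval 60.8 to 66.6), then 138.6 at d24 (7161 fragments, interval 135.4 to 141.8) and 164.4 in the adult (3448 fragments, interval 159.0 to 170.0). The intervals of the 4 stages did not overlap. The largest step, from d12 to d16, was 8.30-fold (7.23 to 9.57). The step to d24 was 2.18-fold (2.07 to 2.29), and adult testis had 1.19 times the d24 level (1.14 to 1.24). Both later steps depend on the scaling between libraries. With FPKM sums made equal, the level at d24 was 1.42 times that at d16, and the adult level was 0.851 times that at d24.

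**Figure D1:**
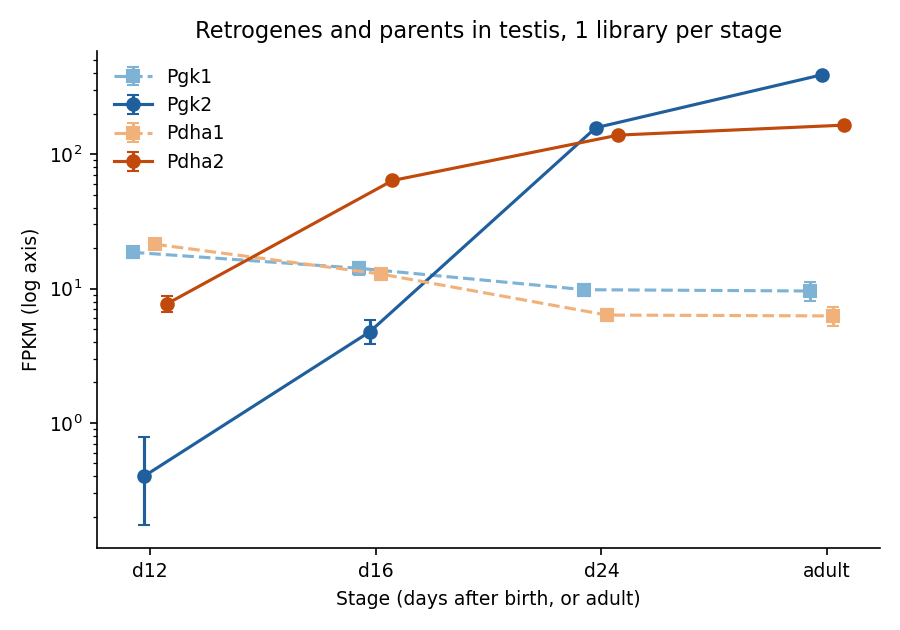
FPKM (log axis) of Pgk1, Pgk2, Pdha1 and Pdha2 in testis of the 4 ages, from a single library each. Circles and full lines are the retrogenes, squares and broken lines the parents, and bars are exact 95% counting ranges. Pgk2 runs from 0.401 to 388.9 FPKM and Pdha2 from 7.67 to 164.4, while both parents lie lower at d24 than at d12.

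The parents went the other way. Pgk1 had 18.6 FPKM at d12 (425 fragments, interval 16.9 to 20.5), 14.2 at d16 (323 fragments, interval 12.7 to 15.8), then 9.80 at d24 (393 fragments, interval 8.86 to 10.8) and 9.59 in the adult (156 fragments, interval 8.14 to 11.2). The values at d12, d16 and d24 did not overlap in their intervals, and the adult value was 0.978 times that at d24 (0.807 to 1.18). From d12 to adult testis, the Pgk1 level was 1.94-fold lower (1.61 to 2.35).

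Pdha1 had 21.3 FPKM at d12 (738 fragments, interval 19.8 to 22.9), 12.8 at d16 (442 fragments, interval 11.6 to 14.1), then 6.35 at d24 (385 fragments, interval 5.73 to 7.01) and 6.26 in the adult (154 fragments, interval 5.31 to 7.33). Here too the first 3 stages were apart, and the adult value was 0.985 times that at d24 (0.812 to 1.19). Pdha1 was 3.41-fold lower in adult testis than at d12 (2.87 to 4.09). Within each library the ratio of Pgk1 to Pdha1 was 0.871 at d12 (0.771 to 0.983) and 1.53 in adult testis (1.22 to 1.93), so Pdha1 lost more than Pgk1 by a factor of 1.76 (1.36 to 2.28). The direction for the parents depends on the scaling between libraries. It held with FPKM sums made equal, where adult testis had 0.222 times the d12 level of Pgk1 and 0.126 times that of Pdha1. Scaling by the median of ratios gave 0.519 and 0.295 times, against 0.5155 and 0.2931 as deposited. That scaling left the deposited values almost unchanged and is thus no separate check. After division by Gapdh, which was itself 3.44-fold lower in adult testis than at d12, the adult level was 1.77 times that at d12 for Pgk1 and 1.01 times for Pdha1.

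The ratio of a retrogene to its parent is taken within 1 library and does not change with the scaling between libraries. The Pgk2 to Pgk1 ratio was 0.0216 at d12 (0.00926 to 0.0429), 0.337 at d16 (0.265 to 0.425), then 16.04 at d24 (14.5 to 17.8) and 40.6 in the adult (34.6 to 47.9). The parent was the more abundant gene at d12 and d16, and the retrogene at d24 and in adult testis. As a share of the summed FPKM of both genes, Pgk2 made up 2.11% at d12, 25.2% at d16, then 94.1% at d24 and 97.6% in the adult. The sum itself was 19.0 FPKM at d12 and 18.9 at d16, but 167.1 at d24 and 398.5 in adult testis.

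The Pdha2 to Pdha1 ratio was 0.359 at d12 (0.308 to 0.418), 4.97 at d16 (4.48 to 5.53), then 21.8 at d24 (19.7 to 24.3) and 26.3 in the adult (22.4 to 31.1). The retrogene therefore exceeded its parent 1 stage earlier in this pair. Pdha2 made up 26.4% of the summed FPKM at d12, 83.2% at d16, then 95.6% at d24 and 96.3% in the adult. The sum was 29.0 FPKM at d12, 76.5 at d16, then 144.9 at d24 and 170.7 in the adult.

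**Figure D2:**
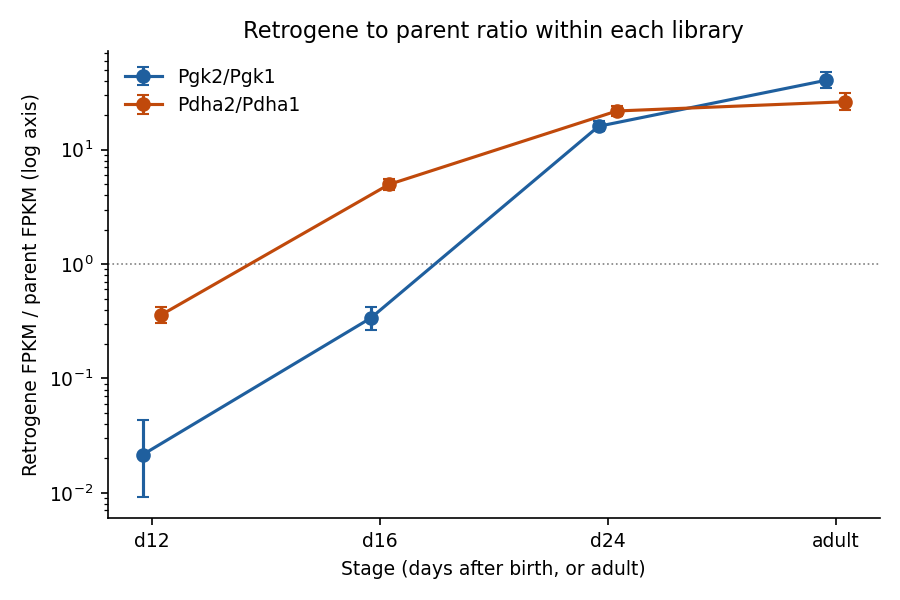
Ratio of the retrogene FPKM to the parent FPKM (log axis) within each of the 4 libraries, with exact 95% counting intervals. The dotted line marks equal levels. The Pdha2/Pdha1 ratio lies above it from d16 (4.97) and the Pgk2/Pgk1 ratio from d24 (16.04).

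Between stages, the ratio of both pairs changed from d12 to d16 by factors whose intervals overlap, by 15.6 for Pgk2/Pgk1 (7.45 to 37.7) and by 13.8 for Pdha2/Pdha1 (11.5 to 16.7). From d16 to d24 the factors were 47.6 (36.8 to 61.8) and 4.39 (3.79 to 5.095). From d24 to adult testis they were 2.53 (2.09 to 3.08) and 1.204 (0.991 to 1.47), the latter interval including no change. The retrogenes themselves also changed places. Pgk2 had 0.0523 times the FPKM of Pdha2 at d12 (0.0223 to 0.105) and 0.0750 times at d16 (0.0604 to 0.0922). At d24 it had 1.135 times (1.095 to 1.18) and in adult testis 2.37 times the level of Pdha2 (2.27 to 2.47).

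The stage of each gain was set beside 6 markers each of 3 germ cell types. Pachytene spermatocytes, in which homologous chromosomes are fully paired, were read from Hspa2, Ldhc, Piwil1, Ccna1, Tcam1 and Ybx2. These reached, by their median, 1.65% of the adult FPKM at d12, 26.7% at d16, then 99.7% at d24. Pdha2 lay at 4.67%, 38.7% and 84.3% of its adult level at these stages. Both values of Pdha2 before d24 lay within the range of the 6 markers, which was 0.189% to 5.55% at d12 and 4.11% to 61.2% at d16.

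Round spermatids, the first haploid cells, were read from Acrv1, Spaca1, Izumo1, Tssk2, Catsper3 and Spata16, which lay at a median of 0.147%, 0.0968% and 43.2% of the adult level. Elongating spermatids, read from Prm1, Prm2, Tnp1, Tnp2, Odf1 and Akap4, lay at 0.0521%, 0.0165% and 12.6%. Pgk2 had 0.103% of its adult level at d12, 1.23% at d16 and 40.4% at d24. At d16 it was below the lowest of the 6 pachytene markers and within the range of the round spermatid markers. Of the latter, Spata16 reached 12.1% there and Spaca1, the next highest, 1.46%, with Acrv1 and Catsper3 listed at 0. The step from d12 to d16 read otherwise, with a rise of Pgk2 by 3.28 on the scale of log2(FPKM + 0.1). The median was 3.54 for the pachytene markers and -0.28 for the round spermatid markers, of which Spata16 rose by 5.75. At d24 Pgk2 was below all 6 pachytene markers (80.5% to 128.0%) and within the range of the round spermatid markers (19.6% to 79.9%). The summed FPKM of the elongating spermatid markers was 13.2 at d12 and 4.45 at d16. The 8 Pgk2 fragments at d12 stand beside that trace of spermatid markers, and its part in them was not tested.

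**Figure D3:**
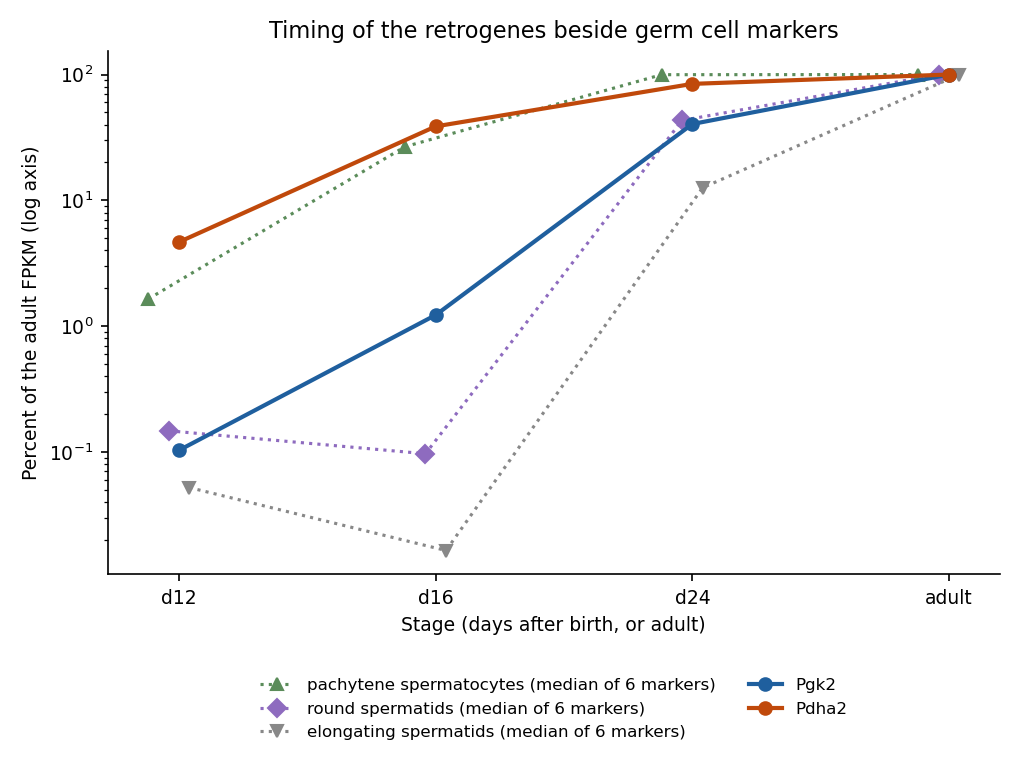
Percent of the adult FPKM (log axis) reached at each of the 4 ages by Pgk2 and Pdha2 (full lines) and by the median of 6 markers each of pachytene spermatocytes, round spermatids and elongating spermatids (dotted lines). At d16 Pdha2 is at 38.7% and Pgk2 at 1.23%, and at d24 they are at 84.3% and 40.4%.

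Most markers of Sertoli cells, spermatogonia and peritubular cells moved with the parents. From d12 to adult testis, 5 of 6, 5 of 6 and 4 of 4 were at least 2-fold lower, against 23.1% of all genes. The exceptions were the Sertoli marker Rhox5, with 20.3 FPKM at d12 and 16.7 in adult testis, and the spermatogonia marker Gfra1, which went the other way with 1.2 and 2.42. The summed FPKM of 6 Sertoli cell markers was 180.6 at d12, 134.8 at d16, then 83.0 at d24 and 63.0 in the adult, with Amh, a hormone of immature Sertoli cells, listed at 0 in adult testis. That of 6 spermatogonia markers was 289.0, 169.4, 86.8 and 62.1, and that of 4 markers of peritubular cells was 243.3, 201.2, 102.7 and 79.9. Macrophage markers (3 of 4 in the table) summed to between 6.26 and 12.6 at the 4 stages. The summed FPKM of 6 Leydig cell markers was 131.6 at d12, 82.4 at d16, then 153.4 at d24 and 580.7 in the adult. Of these markers, 3 were at least 2-fold higher in adult testis than at d12 (Cyp11a1, Cyp17a1 and Insl3), against 35.7% of all genes. None was 2-fold lower, against 23.1%, and Star had 18.8 FPKM at d12 and 15.1 in adult testis. The sum of 6 markers of early meiotic spermatocytes, most of it from Sycp1 and Sycp3, was 882.4 at d12, 1729 at d16, then 1122 at d24 and 1063 in the adult. Sycp1, Sycp3 and Hormad1 were highest at d16, Dmc1 and Prdm9 at d12 and Spo11 in adult testis. These shares are of the 13901 genes whose mean reached 1 FPKM, as deposited. At equal FPKM sums 51.6% of all genes were at least 2-fold lower, at equal upper quartiles 41%, and after division by Gapdh 1.65%. The markers were not counted again at these scalings. The part of these cell types in the lower parent levels was not tested.

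To see how common such changes were, a 2-fold limit was applied, on the scale of log2(FPKM + 0.1), to the 13901 genes whose mean reached 1 FPKM. All 4 members passed this filter. From d12 to d16, both retrogenes were at least 2-fold higher, against 12.6% of all genes, and neither parent was at least 2-fold lower, against 3.67%. From d16 to d24, both retrogenes again were higher as deposited, against 27.5%. Pdha2 lost this call under other scalings, with 1.42-fold at equal FPKM sums and 1.59-fold at equal upper quartiles. Pdha1 was lower, against 8.45%, by 2.02-fold (1.76 to 2.32), an interval that includes the limit, and it was not past the limit with 1 FPKM added (0.532 times) or after division by Gapdh (1.11 times). From d24 to adult testis, Pgk2 alone among the 4 was at least 2-fold higher as deposited, against 11.4%, and none was lower, against 2.2%. With FPKM sums made equal, the Pgk2 fold was 1.77 and under the limit.

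From d12 to adult testis, both retrogenes were higher, against 35.7% of all genes, and Pdha1 was lower, against 23.1%. Pgk1 was just short of the limit, its interval includes it, and it was past the limit at equal FPKM sums (0.222 times) and equal upper quartiles (0.303 times). Division by Gapdh ended the Pdha1 call, as given above. These shares depend on the scaling. Of the genes past the limit from d12 to adult testis, 60.7% were higher as deposited and 61.1% after scaling by the median of ratios. This share was 30.4% with FPKM sums made equal, 38.9% with the same upper quartile and 97.8% after division by Gapdh. The share of higher genes as deposited and with the same sum was 77.5% and 58.7% for d12 to d16, 76.5% and 37.0% for d16 to d24, and 83.8% and 35.9% for d24 to adult testis. On the log2 scale, the difference of 9.60 for Pgk2 ranked 216 among the 13901 genes counted from the highest, and the difference of 4.40 for Pdha2 ranked 1896. From d12 to d16 both were closer in rank, with 427 for Pgk2 and 489 for Pdha2.

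Of the 613 X-linked genes that passed the filter, 55.8% were at least 2-fold lower in adult testis than at d12 and 23.8% at least 2-fold higher. Their median log2 difference was -1.23, against 0.25 for the 13202 autosomal genes that passed. Pgk1 (-0.95) lay above 56.6% of the X-linked genes and Pdha1 (-1.75) above 31.0%. Between stages, the X-linked median was -0.44 from d12 to d16, -0.69 from d16 to d24 and -0.03 from d24 to adult testis. The corresponding values were -0.39, -0.53 and -0.03 for Pgk1 and -0.73, -1 and -0.02 for Pdha1. Pgk1 lay above the X-linked median at the first 2 steps and Pdha1 below it.

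**Figure D4:**
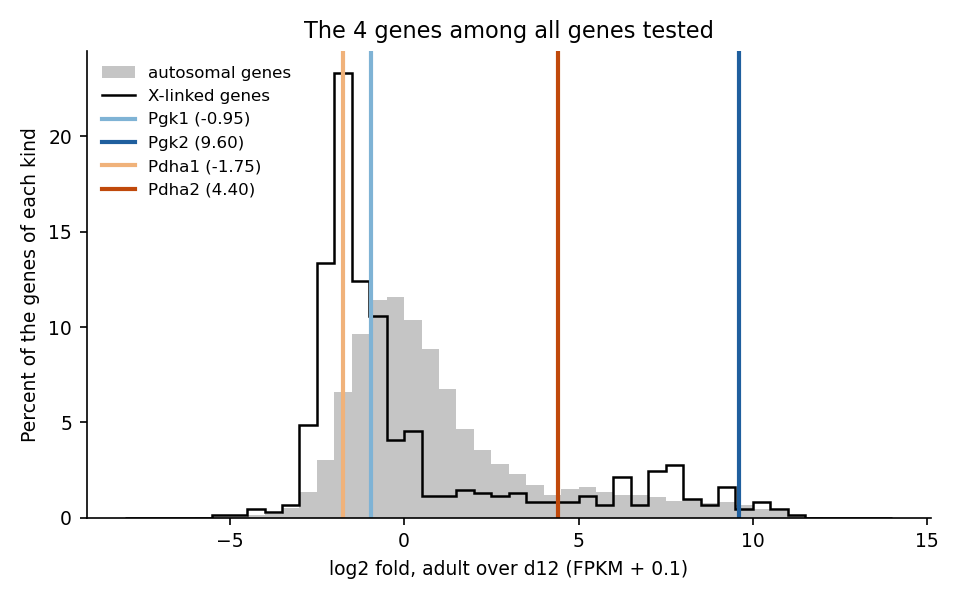
Distribution of the log2 difference between adult testis and d12 (FPKM + 0.1) over autosomal genes (grey area) and X-linked genes (black line), in percent of the genes of each kind, with vertical lines at the 4 members. Pgk1 (-0.95) and Pdha1 (-1.75) lie where most X-linked genes are, and Pdha2 (4.40) and Pgk2 (9.60) lie in the upper tail.

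Within the pyruvate dehydrogenase complex, the E1 alpha subunit pairs with the beta subunit Pdhb. Pdhb had 50.6 FPKM at d12, 81.6 at d16, then 94.0 at d24 and 113.8 in the adult. Within the same library, Pdha1 and Pdha2 together had 0.573 times the FPKM of Pdhb at d12, 0.938 times at d16, then 1.54 times at d24 and 1.5 times in the adult. Pdha1 alone went from 0.422 to 0.0550 times Pdhb between d12 and adult testis, and Pdha2 alone from 0.152 to 1.45 times. At d12 most E1 alpha transcripts thus came from the X-linked gene, and at the 3 later stages most came from the autosomal one.

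Of the 13 genes of the complex and its regulators, 12 passed the filter on low values. From d12 to adult testis, 5 were at least 2-fold higher and 3 lower, near the 35.7% and 23.1% over all genes, with a median log2 difference of 0.78 against 0.20 over all genes. Beside Pdha2 the largest was Pdk2, a kinase that switches the complex off by phosphorylating E1 alpha, with 3.67 FPKM at d12, 4.17 at d16, then 29.1 at d24 and 45.1 in the adult. Dlat, the E2 subunit, had 6.67 FPKM at d12 and 23.8 in adult testis. Pdhb and Pdhx, which anchors the E3 subunit, were also past the limit. On the lower side, the kinase Pdk1 had 12.8 FPKM at d12 and 2.90 in adult testis, and the phosphatase Pdp2, which reactivates the complex, had 2.74 and 0.898. Pdha1 was the third. Dld, the E3 subunit, was within the limit with 85.7 and 132.5 FPKM. The X-linked kinase Pdk3 had 47.9 FPKM at d12, 40.0 at d16, then 52.0 at d24 and 91.4 in the adult, which is not past the limit. With FPKM sums made equal, 2 genes of this list were past the limit on the higher and 6 on the lower side. Over all genes at that scaling, 22.5% were higher and 51.6% lower.

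Of 30 glycolysis genes, 25 passed the filter on low values. From d12 to adult testis, 16 were at least 2-fold higher, against 35.7% of all genes, and 6 lower, near the 23.1% over all genes. The median log2 difference was 2.23 against 0.20 over all genes. With FPKM sums made equal, 14 were higher and 9 lower, against 22.5% and 51.6% of all genes at that scaling. Those higher included, with Pgk2, other genes known as germ cell isoforms of glycolytic enzymes. Gapdhs, which makes the substrate of phosphoglycerate kinase, had 0.219 FPKM at d12 and a listed 0 at d16, followed by 61.0 at d24 and 260.0 in the adult. Its somatic counterpart Gapdh had 68.9, 42.6, 19.1 and 20.04 FPKM at the 4 stages. Ldhc, the lactate dehydrogenase of germ cells, had 5.24 FPKM at d12, 389.2 at d16, then 2267 at d24 and 2769 in the adult. The aldolase retrogene Aldoart2 was listed at 0 at d12 and had 0.0946 FPKM at d16, then 26.4 at d24 and 94.0 in the adult, and its relative Aldoart1 had 58.1 in adult testis. The parent of both, the autosomal Aldoa, had 102.0 FPKM at d12 and 126.0 in adult testis, and lay above each of them at every stage.

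The largest difference of the list was that of Pgam2, the phosphoglycerate mutase that follows phosphoglycerate kinase in the pathway, with 0.441 FPKM at d12, 75.6 at d16, then 821.3 at d24 and 1324 in the adult. On the lower side, Ldhb had 182.2 FPKM at d12 and 50.9 in adult testis, and Aldoc had 2.72 and 0.922. Pgk2 had fewer FPKM than Ldhc at every stage, with a ratio of 0.0123 at d16 and 0.140 in adult testis. The ratio of Pgk1 to Gapdh within a library was 0.270 at d12, 0.332 at d16, then 0.513 at d24 and 0.478 in the adult.

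**Figure D5:**
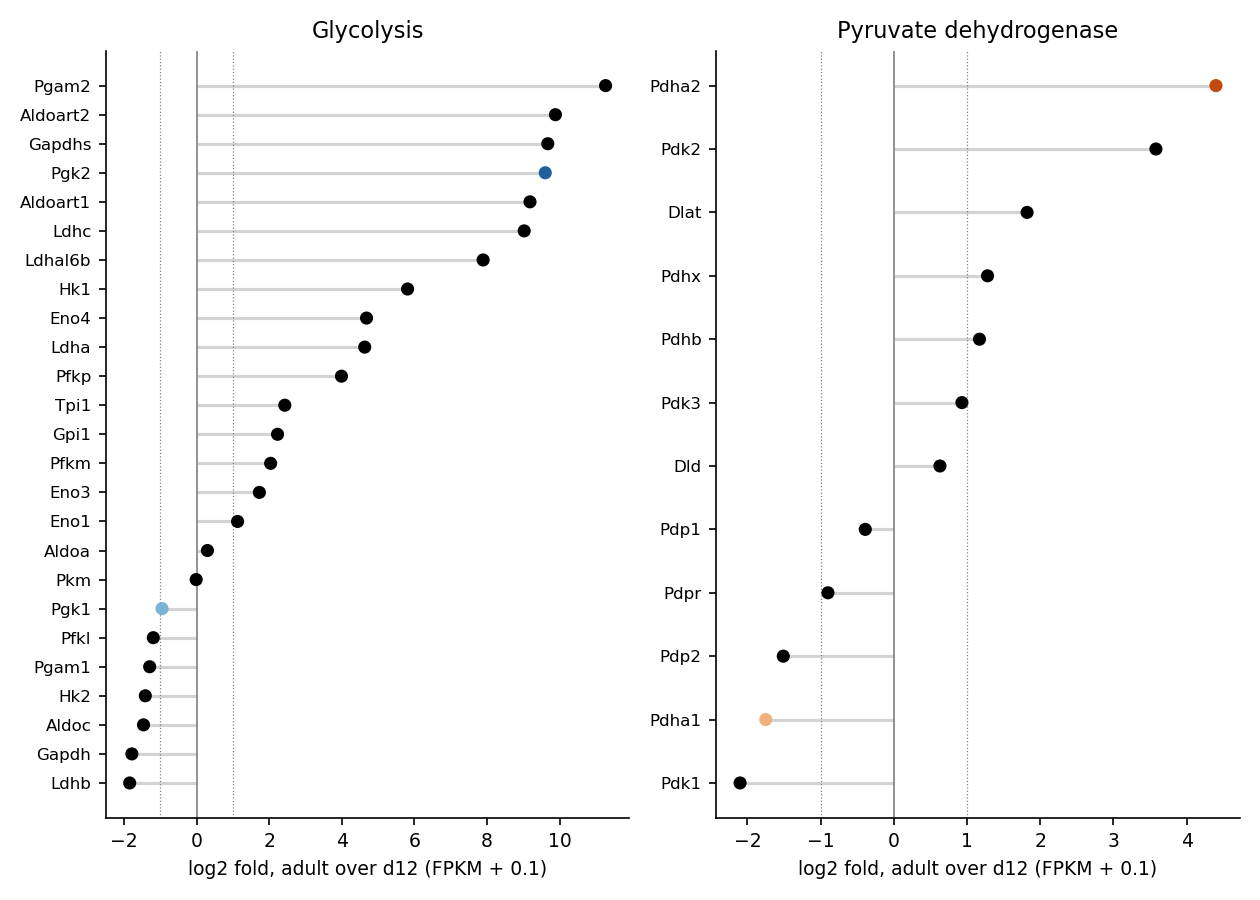
Log2 difference between adult testis and d12 (FPKM + 0.1) for the 25 glycolysis genes (left) and the 12 genes of the pyruvate dehydrogenase complex and its regulators (right) whose mean reached 1 FPKM. Dotted lines mark 2-fold, and the 4 members are coloured. Pgk2 (9.60) lies with Pgam2, Gapdhs, Aldoart1, Aldoart2 and Ldhc at the upper end, and Pdha2 (4.40) is the highest of its list.

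Transporters of pyruvate and lactate and the citrate cycle stand on either side of these enzymes. Of 8 transport genes, 7 were in the table and passed the filter, with 3 at least 2-fold higher and 1 lower from d12 to adult testis and a median log2 difference of 0.59, against 35.7%, 23.1% and 0.20 over all genes. The counts were 2 higher and 3 lower at equal FPKM sums, against 22.5% and 51.6% of all genes at that scaling. Slc16a7, a monocarboxylate transporter, had 0.957 FPKM at d12, 8.96 at d16, then 154.2 at d24 and 473.9 in the adult. Mpc2, a subunit of the mitochondrial pyruvate carrier, had 51.5 FPKM at d12 and 408.1 in adult testis, and Bsg, a chaperone of monocarboxylate transporters, had 179.7 and 481.2. Slc16a1 had 27.96 and 12.6 FPKM. Of 17 citrate cycle genes, 4 were higher and 3 lower as deposited, against 35.7% and 23.1% of all genes, with a median of 0.24 against 0.20. At equal FPKM sums, 2 were higher and 8 lower, against 22.5% and 51.6% of all genes at that scaling. Csl, a germ cell relative of citrate synthase, had 0.736 FPKM at d12 and 80.2 in adult testis. Sucla2 had 72.2 and 440.3, and Idh3b had 31.1 and 75.8. The X-linked Idh3g had 19.1 FPKM at d12 and 6.403 in adult testis. Mdh2 had 35.6 and 15.0, and Suclg2 had 20.03 and 9.07.

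Other autosomal retrogenes with an X-linked parent were examined in the same way. Of 12 such pairs listed, 11 were in the table, and in all 11 the ratio of retrogene to parent was higher in adult testis than at d12. The medians given above, 0.25 for autosomal and -1.23 for X-linked genes, differ in the same direction. How often such a ratio rises over other genes was not counted. The Cstf2t to Cstf2 ratio rose least, by a factor of 1.30, and was 1.57 at d24 and 0.6725 in adult testis. Cstf2 itself had 28.2 FPKM at d12 and 35.3 in adult testis. The retrogene exceeded its parent in 2 of the 11 pairs at d12 and in 9 in adult testis. The parents of these pairs are 10 genes, of which 9 passed the filter and 8 were at least 2-fold lower in adult testis than at d12, against the 55.8% given above for X-linked genes. Among those with metabolic roles, Prps1l1, of phosphoribosyl pyrophosphate synthesis, had a ratio to Prps1 of 0.0329 at d12, 3.18 at d16, then 33.5 at d24 and 40.3 in the adult. G6pd2, of the pentose phosphate pathway, was listed at 0 at d12 and d16, and its ratio to G6pdx was 1.11 at d24 and 3.04 in adult testis. Gk2, a glycerol kinase, had 1.09 times the level of its parent (Gyk) at d12 and 1110 times in adult testis, where the parent had 0.388 FPKM. The retrogene exceeded its parent from d16 for Prps1l1, the stage also seen for Pdha2, and from d24 for G6pd2, the stage also seen for Pgk2.

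The genes whose course over the 4 libraries was most like that of each member were sought among 6963 other genes whose mean reached 10 FPKM. The measure was the largest difference at any stage between log2 values centred on their own mean. For Pdha1 these were the X-linked Nxf2 (0.008) and Taf7l (0.055) and the autosomal Gsr (0.043). Nxf2 had 42.2, 25.1, 12.6 and 12.3 FPKM at the 4 stages. For Pgk1 they were Klhl11 (0.020), Tmem11 (0.021) and Coq7 (0.032), all autosomal. For Pdha2 they were Wfdc15a (0.112), Syngr4 (0.160) and 1700009C05Rik (0.168). Pgk2 had the least close matches, with Cfap58 (0.254), 4933411G06Rik (0.270) and 4921511H03Rik (0.275). With 4 points, such likeness is a description of these libraries. None of these genes was among the first 3 by correlation for the same member.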

How the data were processed

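Whole testis RNA-seq libraries of 4 ages were used, a single one for each age, and the 4 H3K27Ac ChIP-seq samples were not analysed here. The authors aligned strand-specific pairs of 50-base reads to mm10 (GRCm38) by TopHat2 2.1.0, which called Bowtie 1.1.2, with RefSeq genes supplied and a single alignment retained. The deposited FPKM values came from Cuffdiff (Cufflinks 2.2.1), run with its multi-read and bias options and with effective lengths switched off. How libraries were scaled against each other is not given in the sources used here. Pgk1, whose transcript has near copies, is the member most exposed to the single alignment.

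Fragments were recovered as whole multiples of the FPKM value of 1 fragment, using transcript lengths, with a tolerance of 0.05. Levels carry exact Poisson intervals, ratios Clopper-Pearson intervals and ratios of ratios exact conditional intervals, all at 95%. A gene was called at 2-fold on log2(FPKM + 0.1) if its mean reached 1 FPKM. Copies were searched with blastn 2.17.0 (word size 28, e-value 1e-10), and identities came from global alignments in biopython 1.88. Python 3.11.15, numpy 2.4.6, pandas 2.3.3, scipy 1.17.1 and matplotlib 3.10.9 were used. Chromosomes were found for 23845 of the 23983 symbols. The steps were tested on simulated data. The genes named are the members, some of their copies and neighbours, markers, and the 3 genes most like each member. From each pathway list come the 3 largest differences in each direction and some testis isoforms. Some metabolic pairs are also named. Ldhal6b and Eno4 of the glycolysis list and the pair of Gykl1 and Gyk were not described. Pdk3, Dld, Pdhb, Pdhx, Nxf2, Cstf2t and Cstf2 were described with their values known. The members and lists were chosen with earlier results of these data known. Alternatives were other scalings, pseudocounts, filters and fold limits.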

Additional observations from a re-analysis of the deposited data

How the results depend on the processing

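The ratio of retrogene to parent within a library does not change with the scaling between libraries, but it depends on a pseudocount where a level is low. With 1 FPKM added, the Pgk2 to Pgk1 ratio at d12 was 0.0715, its change from d12 to d16 was 5.33 and from d12 to adult testis 515.1, and the Pdha2 to Pdha1 ratio at d24 was 19.0. Division by Gapdh turned the direction of the parents at some steps and not at others. The Pgk1 fold was then 1.23 from d12 to d16, 1.544 from d16 to d24 and 1.77 from d12 to adult testis, and the Pdha1 fold was 1.11 from d16 to d24 and 1.01 from d12 to adult testis. After the same division, Pdha1 was still lower at d16 than at d12 (0.970 times). Both parents were still lower in adult testis than at d24 (0.933 times for Pgk1 and 0.94 times for Pdha1). With FPKM sums made equal, the Pdha2 fold from d24 to adult testis was 0.851. Gapdh itself moved between stages, and the cause of the other changes was not tested. Over the scalings and the pseudocount, the fold from d12 to adult testis ran from 278.3 to 3334 for Pgk2, and from 9.22 to 73.7 for Pdha2. Genes past 2-fold were counted over 7 alternatives, of filter, pseudocount, fold limit, equal FPKM sums and median of ratios. The number at least 2-fold higher from d12 to adult testis ran from 3435 to 6858, and the number lower from 846 to 8166. From d12 to d16 these numbers ran from 883 to 2821 and from 50 to 1864. From d16 to d24 they ran from 2183 to 5159 and from 55 to 5103, and from d24 to adult testis from 458 to 2672 and from 33 to 1979. Division by Gapdh was not one of these 7 alternatives. It gave 10399 higher and 239 lower from d12 to adult testis, and 8823 and 42 from d16 to d24. From d12 to d16 it gave 4016 and 123, and from d24 to adult testis 1656 and 411. Of 224 alternative values, 146 kept their direction and size within the limits set, 72 moved and 6 reversed. The 146 include 2 other forms of each pair ratio that could not differ from it. Fragments for each kilobase give the same ratio by construction, and the share of the pair follows from the ratio. The 146 also include values after scaling by the median of ratios, which left the deposited values almost unchanged. No paired analysis was possible because each stage had 1 library, and for the same reason no replicate could be left out. The 8 fragments of Pgk2 at d12 limit every fold that starts there.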
